A study of Homo sapiens with 96 samples.

Results

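The genes described here are 35 that encode proteins of homologous recombination, of the Fanconi anaemia pathway and of the checkpoint kinases upstream of both. They were chosen by symbol, and each of the 35 symbols matched 1 of the 60675 genes of the count table. All 35 passed the filter on low counts in both batches of the study, in which 16854 and 18324 genes were tested. The cells were A549, a human lung adenocarcinoma line with wild-type p53, exposed to extracts or ingredients of Paeoniae Radix, the root of the peony. The first batch (21 libraries) comprised ethanol extract at 500, 100 and 20 µg/mL, water extract at the same 3 doses, and vehicle. The second (75 libraries) comprised oleanolic acid, hederagenin, gallic acid, catechin, paeonol, paeoniflorin, albiflorin and benzoic acid, each at 10, 2 and 0.4 µM, and a vehicle of its own. Each of the 32 groups had 3 libraries. The labels give neither an exposure time nor the vehicle. They number the replicates without calling them separate cultures, so a p-value here reflects library-to-library spread that may be only technical.

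Homologous recombination repairs a double-strand break by copying an intact sister chromatid: the break is cut back to single strands, and strand exchange, which needs BRCA2, then pairs them with the intact copy. The Fanconi anaemia pathway clears crosslinks between DNA strands. Its core complex attaches ubiquitin to the FANCD2-FANCI pair, which brings in nucleases, and the resulting break is closed by recombination. The kinases ATM and ATR, with CHEK2 and CHEK1 below them, signal breaks and stalled forks, and most of these genes are expressed chiefly in cells that replicate their DNA.

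Levels are given as CPM, counts scaled to a common library total after trimmed mean of M-values (TMM) normalisation. Changes are log2 fold changes, treated minus vehicle, with their standard error. A gene rose or fell where edgeR's quasi-likelihood test gave a Benjamini-Hochberg adjusted p under 0.05 over all genes tested in that comparison. Genes with values given in every library were mostly picked by p-value. A lack of overlap between groups in them is thus a description and adds no support. Library totals were 17927973 to 28136782 counts in the first batch and 15678190 to 35599940 in the second. Epithelial and A549-enriched markers were present in every library, and the summed leukocyte and endothelial markers stayed at or below 0.975 CPM. In the second batch, 18 of the 75 libraries had under 5% of their counts in the 13 mitochondrially encoded mRNAs, against 11.6 to 12.1% in its vehicle libraries, and 4 libraries held COL1A2, a fibroblast collagen gene, at 485 to 606 CPM.

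Ethanol extract at 500 µg/mL gave the most calls among these genes of any comparison: 20 of the 35 fell and 6 rose, and 9 did not pass. The largest falls were in RAD50 (log2 -1.92 ± 0.04), ATR (-1.80 ± 0.06), ERCC4 (-1.26 ± 0.06), FANCM (-1.09 ± 0.08) and ATM (0.499 times vehicle). The 6 that rose were FANCE (1.13 ± 0.13), FANCC (0.44 ± 0.06), RMI2 (0.35 ± 0.05), BRCA2 (0.29 ± 0.06), RBBP8 (0.23 ± 0.04) and XRCC2 (0.18 ± 0.06). Most of the transcriptome changed in this comparison: 69.1% of all genes tested passed, 34.4% lower and 34.7% higher, against 74.3%, 57.1% and 17.1% of the 35. The count in either direction was thus close to the background, and the members' median log2 change was -0.25, beside 0.00 over all genes. A fall of at least 2-fold was seen in 5 of the 35, and in 7.48% of all genes tested. The summed level of the 35 genes was 1040 to 1060 CPM in the 3 treated libraries and 1357 to 1417 CPM in the 3 vehicle libraries. The summed A549-enriched markers were also lower, at 7060 to 7190 CPM with the extract and 12400 to 12700 CPM with vehicle, and all 6 of them fell. Their part in the result was not tested, and fewer cells in a stage of the cycle cannot be told apart from less RNA per cell in bulk samples.

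**Figure D1:**
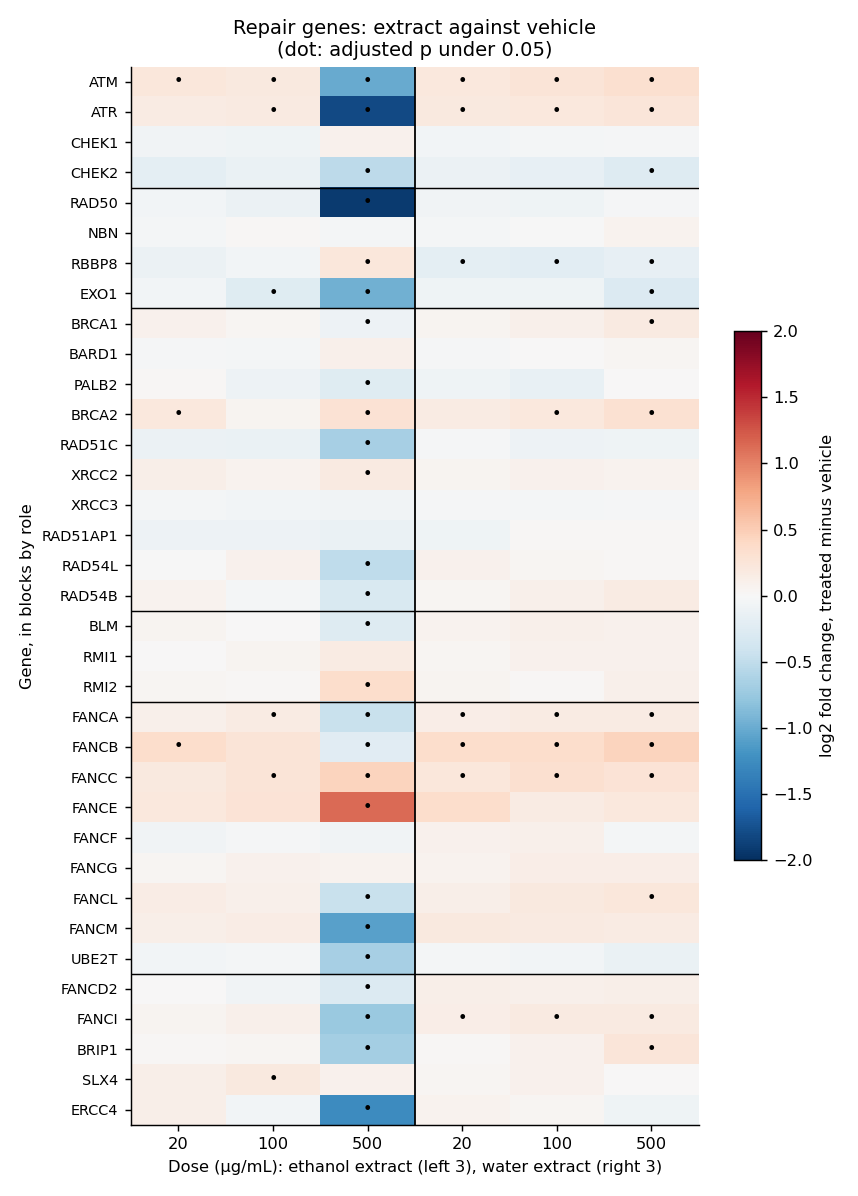
Log2 fold change (colour, treated minus vehicle) of the 35 genes, in blocks by role, for ethanol extract and water extract at 20, 100 and 500 µg/mL; a dot marks adjusted p under 0.05. The column of ethanol extract at 500 µg/mL holds 20 dots on a fall and 6 on a rise, and the largest change in any other column is 0.45 (FANCB, water extract at 500 µg/mL).

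Among the damage kinases, the 2 apical kinases fell most. ATR, which signals stalled forks and resected ends, had 15.5, 14.8 and 12.5 CPM in the 3 libraries of ethanol extract at 500 µg/mL, against 50, 52 and 46.8 CPM in the vehicle libraries (edgeR adjusted p = 4.77e-17). ATM, which signals double-strand breaks, had 29.1, 28.8 and 29.6 CPM with the extract and 56.5, 61.5 and 57.5 CPM with vehicle (adjusted p = 1.55e-14). For both genes every treated library lay far below every vehicle library. CHEK2, the kinase that ATM activates, had 9.47, 9.26 and 9.56 CPM against 13.3, 13.2 and 14.2 CPM with vehicle, a fall of 0.53 ± 0.07 on the log2 scale. CHEK1, the kinase below ATR, did not pass (0.09 ± 0.05, adjusted p = 0.0877 by edgeR).

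In end resection, which cuts a break back to single strands, the change was divided. RAD50, the ATPase that tethers DNA ends in the MRE11-RAD50-NBN complex, had 40.7, 44.2 and 46.3 CPM with ethanol extract at 500 µg/mL and 170, 164 and 161 CPM with vehicle, the smallest p among the 35 (edgeR adjusted p = 3.11e-20). EXO1, the exonuclease of long-range resection, had 23.5, 25.8 and 26 CPM against 48.1, 51.6 and 46.8 CPM with vehicle, a log2 change of -0.96 ± 0.05. The groups did not overlap for either gene. RBBP8, which encodes CtIP, the partner that starts resection, was higher at 51.2, 49.4 and 49.9 CPM with the extract and 42.5, 43.2 and 42.4 CPM with vehicle. NBN, a further subunit of the RAD50 complex, averaged 89.5 ± 1.18 CPM with the extract and 91.5 ± 6.13 CPM with vehicle (SD, n = 3 each), and its groups overlapped. The complex's nuclease, MRE11, is not among the 35 and is named after its values were seen: it averaged 20.7 ± 0.38 CPM with the extract and 39.8 ± 2.31 CPM with vehicle, a log2 change of -0.94 ± 0.06.

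Of the 10 genes of the BRCA proteins and strand exchange, 5 fell, 2 rose and 3 did not pass, with a median log2 change of -0.12. RAD51C, which acts in strand exchange, had 16.9, 19.3 and 16.9 CPM with ethanol extract at 500 µg/mL and 29.4, 27.9 and 27 CPM with vehicle. RAD54L, a motor protein of strand invasion, had 10.3, 11 and 9.63 CPM against 14.9, 14.4 and 14.8 CPM with vehicle. Both lay below vehicle in all 3 libraries, with log2 changes of -0.67 ± 0.06 and -0.51 ± 0.07. BRCA2, a mediator of strand exchange, went the other way, with 33.3, 33.9 and 34.6 CPM with the extract and 28.2, 28.2 and 26.8 CPM with vehicle. RAD54B, the second RAD54 motor, fell by 0.30 on the log2 scale, PALB2, which bridges BRCA1 and BRCA2, by 0.25, and BRCA1, the E3 ligase subunit that promotes resection, by 0.11. BRCA1 no longer passed without vehicle replicate 2 or without replicate 3 of the extract (edgeR adjusted p = 0.104 and 0.067). Its partner BARD1 did not pass (0.11 ± 0.07), nor did XRCC3 (-0.07 ± 0.05) or RAD51AP1 (-0.13 ± 0.08), which both act in strand exchange, while XRCC2, a factor of the same step, rose.

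In the helicase complex that dissolves double Holliday junctions, the genes that passed changed in opposite directions. BLM, its helicase, had 37.3, 35.8 and 36.6 CPM with ethanol extract at 500 µg/mL and 44.4, 43.9 and 42.8 CPM with vehicle (log2 -0.26 ± 0.05). RMI2, a small scaffold subunit, had 35.9, 35 and 36.1 CPM against 29.9, 25.5 and 28 CPM with vehicle. RMI1, the other scaffold, had 25.3, 29.7 and 23.8 CPM with the extract and 24.1, 22.7 and 23.2 CPM with vehicle, with overlapping groups and no pass (adjusted p = 0.0631 by edgeR). Its log2 change was 0.17. It passed as higher without replicate 3 of the extract (edgeR adjusted p = 0.0165) and with no filter on low counts (edgeR adjusted p = 0.0456). BLM and RMI2 thus did not share a direction.

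In the Fanconi core complex, 5 of 9 genes fell, 2 rose and 2 did not pass. FANCM, the translocase that anchors the complex to DNA, had 7.07, 7.52 and 7.12 CPM with ethanol extract at 500 µg/mL and 14.9, 16.1 and 15.3 CPM with vehicle. UBE2T, the E2 enzyme that supplies the ubiquitin, had 20.1, 18.9 and 20 CPM against 31, 28.4 and 34.1 CPM with vehicle. FANCA, a scaffold subunit, had 33.2, 33.5 and 34.3 CPM against 44.9, 48.2 and 44.7 CPM with vehicle. None of these 3 genes overlapped between groups, and their log2 changes were -1.09 ± 0.08, -0.67 ± 0.07 and -0.45 ± 0.04. FANCL, the E3 ligase subunit, fell by 0.44 on the log2 scale. FANCB, which pairs with FANCL, had 6.74, 6.72 and 6.42 CPM with the extract and 7.96, 7.52 and 7.86 CPM with vehicle, and passed narrowly (edgeR adjusted p = 0.0491), a call that was lost with DESeq2 (adjusted p = 0.0963) and in fits lacking any 1 of the 6 libraries (adjusted p of 0.0553 to 0.124). FANCC and FANCE form an arm of the complex that contacts FANCD2, and both rose. FANCC had 30.3, 31 and 30.2 CPM with the extract and 24.1, 21.9 and 21.5 CPM with vehicle. FANCE had 6.65, 7.12 and 6.96 CPM against 3.47, 2.96 and 3.03 CPM with vehicle, a 2.18-fold rise and the only rise of more than 2-fold among the 35. FANCF, which belongs to the same arm, did not pass (-0.07 ± 0.10), nor did FANCG (0.07 ± 0.06), a partner of FANCA.

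Downstream of the core complex, 4 of 5 genes fell. FANCI, a subunit of the clamp that receives ubiquitin, had 79.4, 82.6 and 81.5 CPM with ethanol extract at 500 µg/mL and 137, 139 and 130 CPM with vehicle (edgeR adjusted p = 1.92e-14). Its partner FANCD2 fell by 0.28 on the log2 scale (SE 0.05). ERCC4, which encodes the XPF nuclease that cuts beside the crosslink, had 13.9, 14.6 and 14.2 CPM against 35.3, 34.1 and 33 CPM with vehicle (edgeR adjusted p = 3.22e-15). BRIP1, the FANCJ helicase that binds BRCA1, had 14.9, 14.7 and 16.9 CPM against 24.2, 25.3 and 25 CPM with vehicle. In all 3 genes the treated libraries lay well below vehicle. SLX4, the scaffold that holds XPF and other nucleases, averaged 29.6 ± 1.42 CPM with the extract and 28.1 ± 1.9 CPM with vehicle (SD, n = 3 each) and did not pass.

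**Figure D2:**
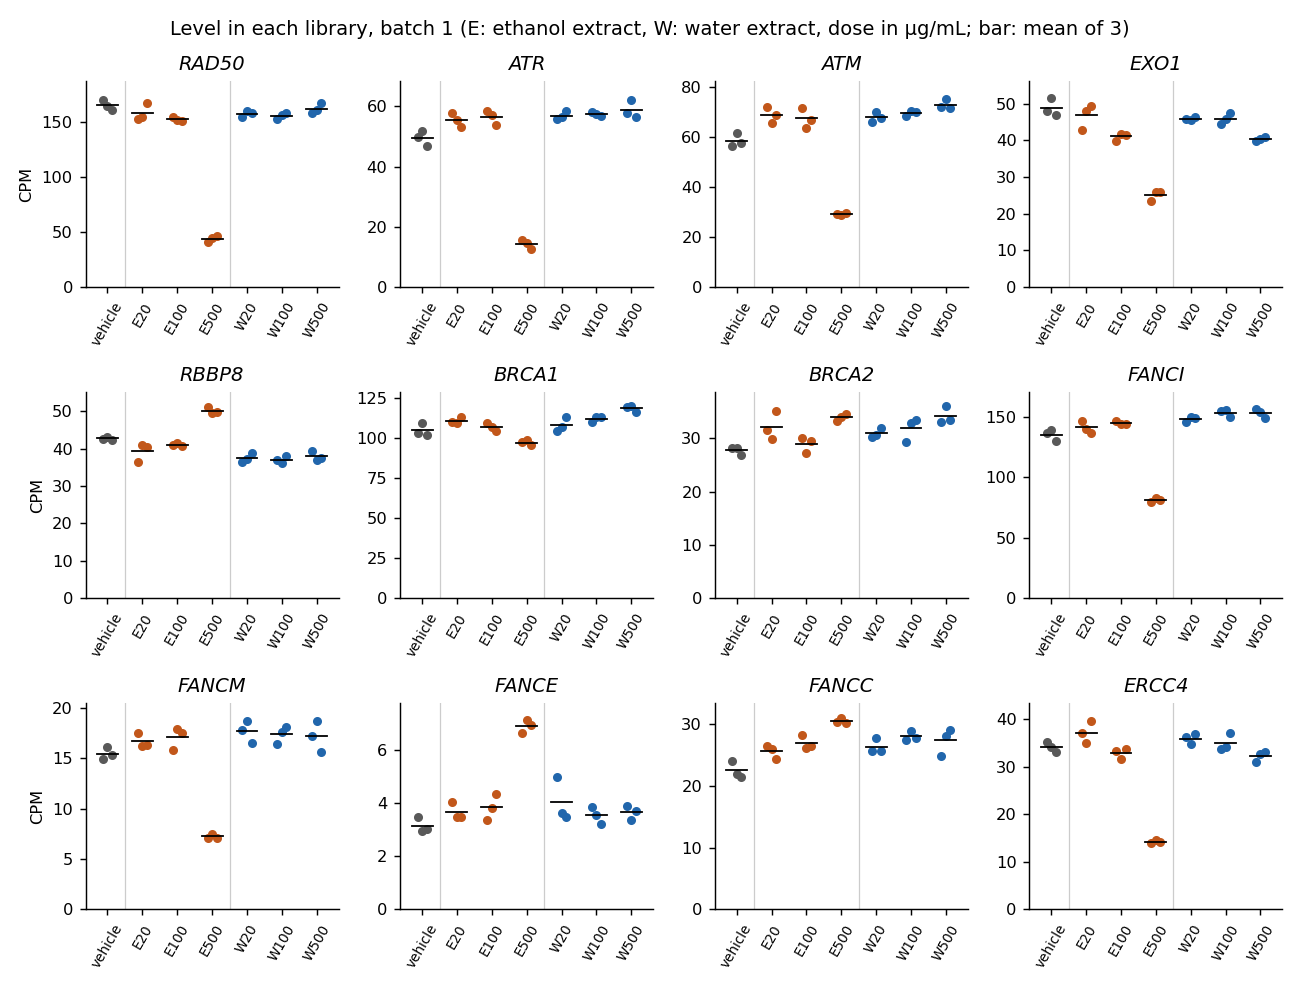
CPM in each of the 21 libraries of the first batch for 12 of the genes: points are libraries, bars are means of 3, and groups run from vehicle through ethanol extract (E) and water extract (W) at 20, 100 and 500 µg/mL. RAD50, ATR, ATM, FANCI, FANCM and ERCC4 are lowest with ethanol extract at 500 µg/mL, where RAD50 is at 40.7 to 46.3 CPM, while FANCE is highest there at 6.65 to 7.12 CPM.

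The start-site sequences of 31 of the 35 genes were matched in RefSeq (build GRCh38.p14), as 300-base windows from 250 bases before to 50 bases after the start, 41 windows in all. They were searched on both strands for the E2F words TTTGGCGC, TTTCCCGC, TTTGCCGC and TTTCGCGC, letters recognised by the E2F factors that drive S phase genes. A word was found in 6 of the 31 genes (19.4%), namely EXO1, XRCC2, RMI1, FANCA, FANCC and FANCD2, and in 3.99% of all genes with such a window. Of these 6, EXO1, FANCA and FANCD2 fell with ethanol extract at 500 µg/mL, FANCC and XRCC2 rose and RMI1 did not pass. The CHR words TTTGAA and TTCGAA, which mark many genes of mitosis, were in 4 of 31 (12.9%) and in 19.5% of all genes. A match is a description of the letters and not a site of binding. The windows of EXO1 (chr1:241847954-241848253, plus strand) and FANCD2 (chr3:10026187-10026486, plus strand), which fell, of FANCC (chr9:95317660-95317959, minus strand), which rose, and of RAD50 (chr5:132556727-132557026, plus strand), which fell most and has none of the words, are shown 5′ to 3′ along the gene with the E2F words in capitals.
EXO1: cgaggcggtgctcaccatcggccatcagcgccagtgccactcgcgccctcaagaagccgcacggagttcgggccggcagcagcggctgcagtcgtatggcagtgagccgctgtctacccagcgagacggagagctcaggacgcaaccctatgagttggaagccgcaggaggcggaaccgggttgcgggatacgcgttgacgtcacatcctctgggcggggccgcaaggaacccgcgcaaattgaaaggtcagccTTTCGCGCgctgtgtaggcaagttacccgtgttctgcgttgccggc
FANCD2: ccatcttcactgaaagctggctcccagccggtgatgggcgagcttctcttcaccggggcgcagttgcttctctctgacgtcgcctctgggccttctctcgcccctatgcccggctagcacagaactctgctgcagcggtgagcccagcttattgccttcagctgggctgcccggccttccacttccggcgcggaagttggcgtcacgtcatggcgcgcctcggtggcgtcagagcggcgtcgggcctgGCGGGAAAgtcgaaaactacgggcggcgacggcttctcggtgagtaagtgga
FANCC: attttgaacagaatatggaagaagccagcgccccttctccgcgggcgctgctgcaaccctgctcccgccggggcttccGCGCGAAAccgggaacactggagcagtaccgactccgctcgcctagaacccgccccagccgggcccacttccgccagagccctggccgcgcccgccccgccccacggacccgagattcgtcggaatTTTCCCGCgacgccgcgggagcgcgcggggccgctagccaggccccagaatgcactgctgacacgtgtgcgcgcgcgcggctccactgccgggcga
RAD50: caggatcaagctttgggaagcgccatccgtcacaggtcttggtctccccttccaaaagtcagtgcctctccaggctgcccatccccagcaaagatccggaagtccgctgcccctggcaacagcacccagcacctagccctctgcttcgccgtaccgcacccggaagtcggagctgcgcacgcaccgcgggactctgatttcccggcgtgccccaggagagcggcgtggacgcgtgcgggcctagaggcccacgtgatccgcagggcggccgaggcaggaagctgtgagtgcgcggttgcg
The word of EXO1 begins at base 5 after its start and that of FANCD2 at base -2, while FANCC has 2 words that begin at bases -172 and -46.

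The 5 genes that fell at least 2-fold have long transcripts. In GENCODE v29 (GRCh38), the longest transcript of RAD50 (chr5) is 8306 bases, of ATR (chr3) 8249, of ATM (chr11) 13147, of FANCM (chr14) 7111 and of ERCC4 (chr16) 6758, against a median of 4153 bases over the 35 genes. Other long members did otherwise: BRCA2, at 11986 bases, rose, and SLX4, at 7307 bases, did not pass. Over genes above a mean log2 CPM of 3 in the vehicle libraries, transcripts longer than 6000 bases were shifted upward relative to those under 2000 bases by a median log2 difference of 0.336 to 0.374 in the libraries of ethanol extract at 500 µg/mL, beside -0.041 to 0.026 in the vehicle libraries. The longest transcript correlated weakly with the log2 change across the 35 genes (Pearson r = -0.34, Spearman rho = -0.25), which are not independent replicates. The deposited counts of 17 of the 35 genes were whole numbers, to within 1e-06, in every library. Those of XRCC3, RAD54B, FANCA, FANCL and FANCI were never whole, and those of CHEK2, RAD54L, ERCC4, ATR and FANCC were mostly not. Those of RAD50 were whole in 63.5% of libraries and those of ATM in 81.2%, so reads of these genes were shared with other genes and their levels are uncertain. Exons of 20 of the 35 overlap the span of a gene on the other strand (NPAT for ATM, POLG for FANCI, ZNF276 for FANCA). The span includes introns, and exons of the 2 genes were not compared with each other. No source used here says whether the counting used the strand.

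Other repair pathways and the cell cycle were read from lists of genes outside the 35 in the same comparison, in which 34.7% of all genes tested rose and 34.4% fell. Of 49 other recombination and Fanconi genes, 15 rose, 19 fell and 15 did not pass, with a median log2 change of -0.02. This larger list of the same pathways thus lay near the background. H2AX, whose phosphorylation marks breaks, averaged 35.1 ± 1.18 CPM with the extract and 109.5 ± 6.28 CPM with vehicle, and BCCIP, a BRCA2 partner, had a log2 change of -0.96 ± 0.05. In ATR signalling and fork protection, 5 of 21 rose and 13 fell. TOPBP1, the activator of ATR, was lower (-0.97 ± 0.05), and TLK1, a chromatin assembly kinase, was higher (0.86 ± 0.04). In end joining, which seals breaks without a template, 1 of 19 rose and 13 fell, among them the Ku subunits XRCC6 (-0.95 ± 0.04) and XRCC5 (-0.81 ± 0.03). Mismatch repair had 1 of 7 higher and 6 lower, among them PMS1 (-1.36 ± 0.07), and base excision repair had 3 of 19 higher and 13 lower, with APTX at -0.84 ± 0.07 and MBD4 at -0.61 ± 0.06. Nucleotide excision repair was divided, with 6 of 20 higher and 8 lower: the helicase ERCC2 was at -1.06 ± 0.06 and the damage sensor DDB2, a p53 target, at 0.76 ± 0.05.

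Most genes of mitosis and most p53 targets changed in a single direction. In mitosis, 34 of 36 fell and 1 rose, with a median log2 change of -0.84 and DLGAP5 at 4.29 ± 0.32 CPM with the extract and 78.6 ± 5.17 CPM with vehicle. HMMR, a spindle protein, was at 8.60 ± 0.60 and 64.8 ± 2.12 CPM. Of 36 S phase genes, 27 fell and 6 rose (median -0.28), with the helicase subunit MCM6 at -1.45 ± 0.05 and the licensing factor CDT1 at 1.37 ± 0.05. The regulators of cycle transcription were mixed (7 of 19 higher, 9 lower), and TFDP2, a partner of E2F, rose by a log2 of 0.85 ± 0.03 and LIN54, of the DREAM complex, by 0.65 ± 0.05. Of 25 p53 targets, 23 rose and 2 fell, with the apoptosis gene BBC3 at a log2 change of 1.97 ± 0.08 and GDF15, a secreted stress factor, at 35.3 ± 2.38 CPM against 11.8 ± 0.49 CPM with vehicle. The median of the 35 genes, -0.25, lay close to that of the S phase list and above those of end joining (-0.47) and mismatch repair (-0.47). These medians are descriptions, and no difference between lists was tested.

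**Figure D3:**
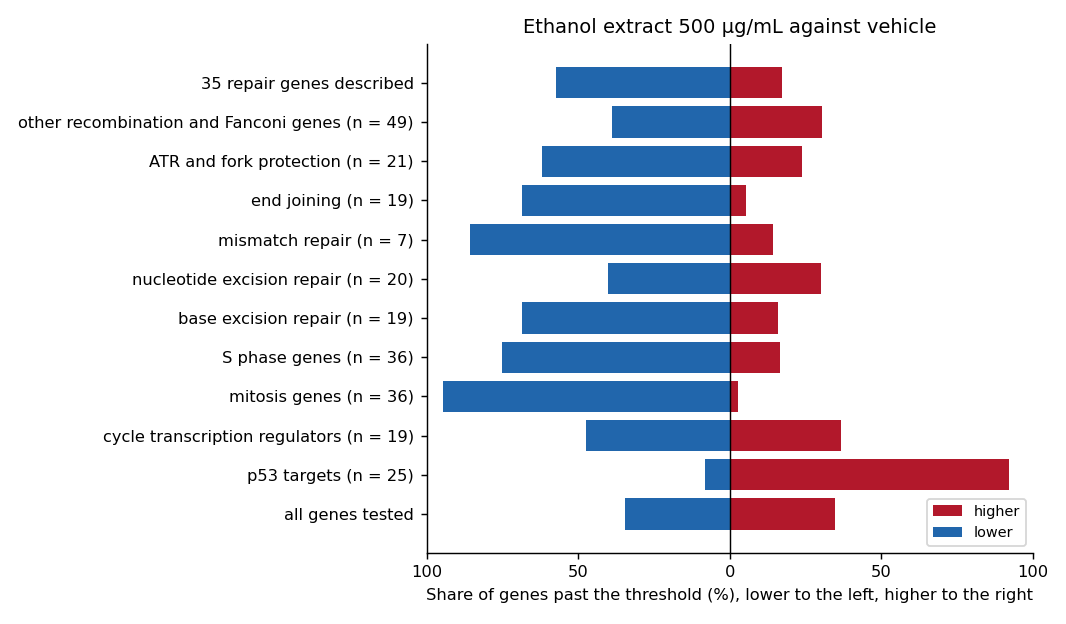
Share of the genes of each list past adjusted p under 0.05 for ethanol extract (500 µg/mL) over vehicle, lower to the left and higher to the right. The 35 genes had 57.1% lower and 17.1% higher, and all genes tested had 34.4% lower and 34.7% higher.

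With water extract at 500 µg/mL most of the members that passed were higher than vehicle. Of the 35, 10 rose and 3 fell, when 21.1% of all genes tested passed in that comparison (9.7% higher and 11.4% lower). The rises were small: FANCB at 10.3, 10.9 and 10.7 CPM against 7.96, 7.52 and 7.86 CPM with vehicle gave the largest (0.45 ± 0.10), followed by ATM (0.32 ± 0.05), BRCA2 (0.30 ± 0.06), FANCC (0.28 ± 0.06), BRIP1 (0.25 ± 0.06), ATR (0.25 ± 0.05), FANCL (0.23 ± 0.07), BRCA1 (0.18 ± 0.04), FANCI (0.18 ± 0.04) and FANCA (0.17 ± 0.04). The 3 that fell were EXO1 (-0.27 ± 0.05), CHEK2 (-0.25 ± 0.07) and RBBP8 (-0.17 ± 0.05). Calls for FANCL, BRIP1, CHEK2 and RBBP8 were lost without replicate 2 of the water extract, those for FANCL and CHEK2 also without vehicle replicate 3, and that for FANCL also without vehicle replicate 1. The members' median log2 change was 0.09, beside 0.01 over all genes. RAD50, with 158, 161 and 167 CPM against 170, 164 and 161 CPM with vehicle, and ERCC4, with 31, 32.7 and 33 CPM against 35.3, 34.1 and 33 CPM, did not pass.

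Set directly against each other at 500 µg/mL, ethanol extract was lower than water extract for 20 of the 35 genes and higher for 5, when 66.1% of all genes tested passed (33.3% lower and 32.7% higher). The largest differences, ethanol minus water, were -2.05 ± 0.06 for ATR, -1.89 ± 0.04 for RAD50, -1.32 ± 0.05 for ATM, -1.25 ± 0.08 for FANCM and -1.17 ± 0.06 for ERCC4. The 5 higher with ethanol extract were FANCE (0.92 ± 0.13), RBBP8 (0.40 ± 0.04), RMI2 (0.25 ± 0.05), FANCC (0.16 ± 0.06) and CHEK1 (0.11 ± 0.05). CHEK1 no longer passed with DESeq2 (adjusted p = 0.0824) or without replicate 1 or 2 of either extract, and FANCC without replicate 1 of the water extract or replicate 2 of the ethanol extract. BRCA2, which rose with each extract, did not differ detectably between them (-0.01 ± 0.06, 95% interval -0.13 to 0.11). At 100 µg/mL 0 of the 35 passed between the extracts by edgeR, when 1.77% of all genes did, and at 20 µg/mL 0 passed, when 0% did. Unadjusted p-values under 0.05 were found for 7 and 0 of the 35 at these doses, beside 2120 and 735 of the 16854 genes tested.

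At the lower doses few of the 35 genes passed, and most of those were higher than vehicle. Ethanol extract at 100 µg/mL raised ATM, ATR, FANCA, FANCC and SLX4 and lowered EXO1, 6 of 35 when 17.5% of all genes passed (8.26% higher and 9.23% lower). Ethanol extract at 20 µg/mL raised ATM, BRCA2 and FANCB, 3 of 35 when 7.45% did (3.63% higher and 3.82% lower). Water extract at 100 µg/mL raised ATM, ATR, BRCA2, FANCA, FANCB, FANCC and FANCI and lowered RBBP8, 8 of 35 when 12.6% did (5.58% higher and 6.98% lower). At 20 µg/mL it raised the same genes except BRCA2 and lowered RBBP8, 7 of 35 when 9.51% did (4.26% higher and 5.25% lower). The shares with ethanol extract at 100 and 20 µg/mL were thus near the background. Leaving out vehicle replicate 3 gave 1 gene with ethanol extract at 20 µg/mL, when 4.62% of all genes passed. It gave 5 with water extract at 100 µg/mL (7% of all genes) and 2 with water extract at 20 µg/mL (4.75%). The count at 20 µg/mL was also 1 without replicate 1 of the ethanol extract (3.71% of all genes). For water extract it was 4 without vehicle replicate 1 (6.09%) and 2 to 3 without any 1 of its own libraries (4.26 to 8.43%). The share of all genes was lower in each of these fits as well, so the drops are not read as particular to the 35.

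ATM was the single gene that rose in all 5 comparisons other than ethanol extract at 500 µg/mL. It had 71.9, 65.5 and 68.8 CPM with ethanol extract at 20 µg/mL and 71.5, 63.6 and 66.9 CPM at 100 µg/mL, and with water extract 66, 69.9 and 67.4 CPM at 20 µg/mL, 68.5, 70.5 and 70.1 CPM at 100 µg/mL and 71.8, 75.3 and 71.5 CPM at 500 µg/mL. All 15 values lay above the highest vehicle library, 61.5 CPM. ATR had 58.5, 57.1 and 53.7 CPM with ethanol extract at 100 µg/mL, and with water extract 55.8, 56.4 and 58.5 CPM at 20 µg/mL and 58.3, 57.5 and 56.8 CPM at 100 µg/mL, above its vehicle range of 46.8 to 52 CPM. RBBP8 was at 36.3, 37.2 and 38.9 CPM with water extract at 20 µg/mL and 37, 36.1 and 38.1 CPM at 100 µg/mL, each below the vehicle range of 42.4 to 43.2 CPM. EXO1 had 39.8, 41.8 and 41.6 CPM with ethanol extract at 100 µg/mL, below the vehicle range of 46.8 to 51.6 CPM. In none of these comparisons did the groups overlap, but the genes were named because they passed.

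In the BRCA and Fanconi genes the rises at the lower doses were small. BRCA2 had 31.5, 29.8 and 35.2 CPM with ethanol extract at 20 µg/mL and 29.3, 32.9 and 33.5 CPM with water extract at 100 µg/mL, against 26.8 to 28.2 CPM with vehicle. FANCA had 49.5, 53.4 and 50.9 CPM with ethanol extract at 100 µg/mL, and with water extract 50.3, 50.1 and 50.3 CPM at 20 µg/mL and 50.9, 51.4 and 52.6 CPM at 100 µg/mL, against 44.7 to 48.2 CPM with vehicle. Both genes lay above vehicle in every library named. FANCB had 10.3, 9.37 and 10.2 CPM with ethanol extract at 20 µg/mL, and with water extract 10.5, 8.34 and 10.9 CPM at 20 µg/mL and 8.66, 10.7 and 10.4 CPM at 100 µg/mL, against 7.52 to 7.96 CPM with vehicle. FANCC had 28.2, 26.2 and 26.5 CPM with ethanol extract at 100 µg/mL, and with water extract 25.6, 27.8 and 25.7 CPM at 20 µg/mL and 27.5, 28.9 and 27.7 CPM at 100 µg/mL, against 21.5 to 24.1 CPM with vehicle. These genes did not overlap with vehicle either. FANCI had 146, 150 and 149 CPM with water extract at 20 µg/mL and 155, 156 and 150 CPM at 100 µg/mL, against 130 to 139 CPM with vehicle. SLX4 passed in a single comparison, at 32.3, 31.7 and 32.6 CPM with ethanol extract at 100 µg/mL and 26.3, 27.9 and 30.1 CPM with vehicle. Leaving out 1 library at a time ended the calls for ATR and SLX4 with ethanol extract at 100 µg/mL, for BRCA2 and FANCB at 20 µg/mL, for ATR, BRCA2 and FANCB with water extract at 100 µg/mL, and for every called gene but ATM at 20 µg/mL, each in at least 1 of the 6 fits. The edgeR adjusted p in these fits rose as high as 0.164, for FANCA with water extract at 20 µg/mL. All 6 comparisons share the 3 vehicle libraries. Those libraries had 13.9 to 18.5% mitochondrial mRNA, beside 11.6 to 15.3% in the 18 treated libraries. The log2 level of long relative to short transcripts was -0.041 to 0.026 with vehicle. It was 0.039 to 0.179 with water extract at any dose and with ethanol extract at 20 and 100 µg/mL. ATM, BRCA2 and ATR have long transcripts (13147, 11986 and 8249 bases). RAD50, at 8306 bases, did not rise, and FANCB, at 3040 bases, did. The part of either difference in the small rises was not tested. In 8 of the 35 genes (CHEK1, NBN, BARD1, XRCC3, RAD51AP1, RMI1, FANCF and FANCG) no comparison of an extract with vehicle passed.

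In the ingredient batch few of the 35 genes passed. Oleanolic acid, a pentacyclic triterpenoid, lowered BLM, FANCB and FANCM at 10 µM, 3 of 35 when 4.45% of all genes tested passed (1.87% lower). Hederagenin at 10 µM, which carries an additional hydroxyl group, lowered RMI2 (2.42% of all genes), and gallic acid at 10 µM, a trihydroxylated benzoic acid, lowered ATR (13.5% of all genes). Catechin at 2 µM lowered ATM, ATR and BLM and raised XRCC3 (8.06% of all genes). By edgeR 0 of the 35 passed with catechin, paeonol, paeoniflorin, albiflorin or benzoic acid at 10 µM, when 0.0655%, 0.126%, 0.191%, 0.0382% and 0.0273% of all genes did, or in the other 15 comparisons at 2 and 0.4 µM. At 2 and then 0.4 µM, the share of all genes that passed was 0.322% and 0.18% with oleanolic acid, 0.0546% and 3.05% with hederagenin, 0.611% and 0.0709% with gallic acid, 0.0873% and 0.278% with paeonol, 0.229% and 0.136% with paeoniflorin, 0.0382% and 0.0382% with albiflorin and 0.0218% and 0.0327% with benzoic acid. With catechin at 0.4 µM it was 4.66%. Unadjusted p-values under 0.05 were found for 0 to 2 of the 35 genes with those 5 ingredients at 10 µM, beside 449 to 3824 of the 18324 genes tested.

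With oleanolic acid at 10 µM, 32 of the 35 genes had a negative log2 change, beside 47.6% of all genes, and their median was -0.28, beside 0.02 over all genes. BLM, in the series vehicle, 0.4, 2 and 10 µM, had 43.4, 42.8 and 43.8 CPM, then 40.4, 42.3 and 41.1 CPM, then 33.3, 40 and 37.4 CPM, and 30.6, 30.4 and 30.1 CPM at the highest dose. FANCB had 7.96, 8.33 and 8.33 CPM with vehicle, 6.83, 7.51 and 7.28 CPM at 0.4 µM, 5.96, 6.15 and 7 CPM at 2 µM and 4.47, 5.11 and 5.79 CPM at 10 µM. FANCM had 14, 14.5 and 13.9 CPM with vehicle, 12.2, 12 and 13.5 CPM at 0.4 µM, 9.18, 10.9 and 12.3 CPM at 2 µM and 8.21, 8.47 and 9.61 CPM at 10 µM. For all 3 genes the mean was lower at each higher dose, and at 10 µM every library lay below every vehicle library. Their log2 changes at 10 µM were -0.51 ± 0.14, -0.68 ± 0.18 and -0.69 ± 0.20 (edgeR adjusted p = 0.0202, 0.0181 and 0.0273). At 2 and 0.4 µM 0 of the 35 genes passed with oleanolic acid by edgeR, with medians of -0.11 and -0.09.

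The count with oleanolic acid at 10 µM changed with the libraries in the fit. The common biological coefficient of variation was 0.212 over the 75 libraries, beside 0.0444 in the extract batch. Leaving out 1 library at a time left 0 of the 35 genes past the test without replicate 1 or 2 of oleanolic acid or without vehicle replicate 2 or 3, 1 without vehicle replicate 1 and 2 without replicate 3 of oleanolic acid. Without the 18 libraries under 5% mitochondrial mRNA, 1 of them a library of oleanolic acid at 10 µM, 17 of the 35 genes fell and 1 rose, when 19.2% of all genes passed. With the 2 groups alone in the fit and all 3 libraries kept, 17 fell and 1 rose as well, when 23.3% of all genes passed, and 14 of the fallen genes were common to both. These 17 without the low-share libraries included RAD54B (-0.59 ± 0.10), BRCA2 (-0.55 ± 0.15), RAD51AP1 (-0.52 ± 0.10), ATR (-0.43 ± 0.10), EXO1 (-0.38 ± 0.07), BRCA1 (-0.34 ± 0.08) and FANCA (-0.32 ± 0.06), and the gene that rose was RBBP8 (0.38 ± 0.06). Of the 17, 11 (64.7%) also fell with ethanol extract at 500 µg/mL in the other batch, which is 55% of the 20 that fell there. Since 57.1% of all 35 genes fell with the extract, a share of 64.7% is close to the background and nothing is read from it. BRCA2 and RMI2, 2 of the 17, rose with the extract. RAD50, the gene that fell most with the extract, did not pass with oleanolic acid in either fit.

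**Figure D4:**
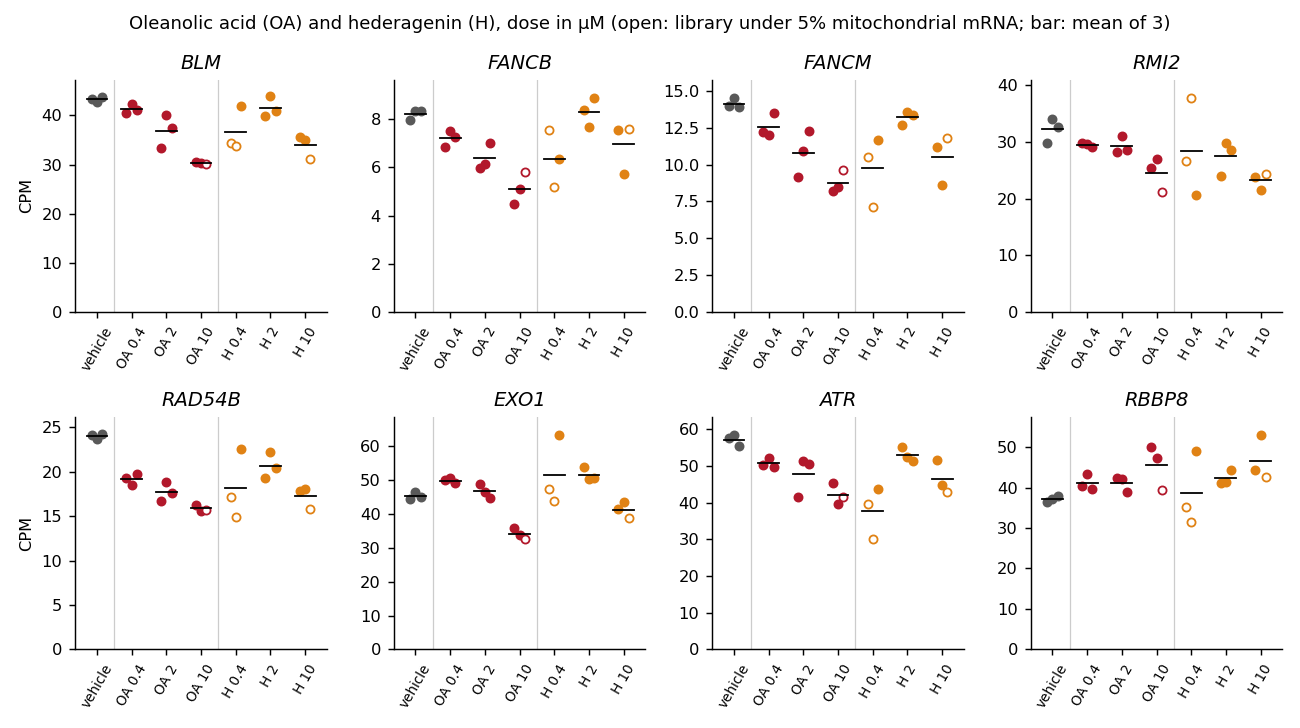
CPM in each library for 8 genes with vehicle, oleanolic acid (OA) and hederagenin (H) at 0.4, 2 and 10 µM; bars are means of 3 and open points are libraries under 5% mitochondrial mRNA. BLM is at 30.1 to 30.6 CPM with oleanolic acid at 10 µM and 42.8 to 43.8 CPM with vehicle, and the open points scatter widely with hederagenin at 0.4 µM.

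Hederagenin at 10 µM gave RMI2 levels of 23.9, 21.6 and 24.4 CPM against 29.8, 34.1 and 32.7 CPM with vehicle (-0.47 ± 0.14, edgeR adjusted p = 0.0485). The groups did not overlap, but RMI2 no longer passed in a fit lacking any 1 of its 6 libraries. The median over the 35 genes was -0.12, and without the low-share libraries 7 fell and 2 rose, when 13.7% of all genes passed. Of the 7, RAD54L, RAD54B, BLM, RMI2, FANCA and FANCM also fell with oleanolic acid in that fit, as did 17 of all 35. Both compounds were set against the same vehicle libraries, so nothing is read from the overlap. UBE2T fell with hederagenin (-0.53 ± 0.12) and did not pass with oleanolic acid (-0.22 ± 0.12), and RBBP8 rose with both. The 2 triterpenoids were compared at the 3 matched doses, and 0 of the 35 genes passed at any of them by edgeR, when 0.0109% of all genes passed at 10 µM and 0% at 2 and 0.4 µM. Without the low-share libraries 1 of the 35 passed at 10 µM (0.863% of all genes), and at 0.4 µM hederagenin had 1 library left. With only replicate 3 of hederagenin at 0.4 µM left out, 4 passed at that dose (11.3%). Unadjusted p-values under 0.05 were found for 2 of the 35 at 10 µM, FANCB and EXO1, beside 578 of the 18324 genes tested. The difference at 10 µM, hederagenin minus oleanolic acid, was 0.44 for FANCB (95% interval 0.07 to 0.81), 0.28 for EXO1 (0.00 to 0.55), 0.16 for BLM (-0.12 to 0.44) and -0.07 for RMI2 (-0.34 to 0.20). The test did not show that the 2 compounds act alike, since these intervals hold differences of that size.

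Gallic acid at 10 µM gave ATR levels of 23.3, 47.1 and 34.4 CPM against 57.6, 58.3 and 55.4 CPM with vehicle (-0.71 ± 0.20, edgeR adjusted p = 0.0177). The lowest and the middle value came from libraries with 1.44 and 2.07% mitochondrial mRNA, and the highest from the library with 15.5%. Without replicate 2, the library with 15.5%, 18 of the 35 genes passed, and without replicate 1 or 3, or vehicle replicate 1 or 2, 0 did. The share of all genes that passed is not given for these fits, so the 18 is not read as a result about the 35. Leaving out the low-share libraries left 1 library in the group and 0 of 35 genes past the test. Against benzoic acid, which lacks the hydroxyl groups, gallic acid at 10 µM was lower for ATR (-0.68 ± 0.20), BARD1 (-0.69 ± 0.23) and FANCI (-0.34 ± 0.11), 3 of 35 when 8.7% of all genes passed. In this pair 15 of the 35 passed without replicate 2 of gallic acid, when 39% of all genes did. Leaving out any other library of the pair left 0 or 1 of the 35 past the test. At 2 and 0.4 µM 0 passed between gallic and benzoic acid, and 0 between the isomers paeoniflorin and albiflorin at 10, 2 or 0.4 µM, when 0% of all genes did. These were 9 pairs of groups in all with the 3 of the triterpenoids. Catechin at 2 µM gave ATM levels of 41.5, 39.5 and 35.3 CPM against 64.1, 62.2 and 63.8 CPM with vehicle, and XRCC3 levels of 51.7, 41.7 and 42.6 CPM against 37, 35.7 and 36 CPM. ATR had 31.3, 41 and 35 CPM with catechin at 2 µM and 57.6, 58.3 and 55.4 CPM with vehicle, and BLM 25.7, 34.6 and 35.6 CPM against 43.4, 42.8 and 43.8 CPM. No group overlapped with vehicle for these 4 genes, which were named because they passed. Of the 35 genes, 16 lay wholly below vehicle in this comparison and 3 wholly above. Replicate 2 of catechin at 2 µM is a library with COL1A2, at 485 CPM, and its summed fibroblast markers were 987 CPM, against 75.4 to 82.2 CPM with vehicle; their part in these calls was not tested. The 3 libraries had 0.486, 3.52 and 6.51% mitochondrial mRNA, and without the first of them 0 of the 35 genes passed.

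Across the 75 libraries of the second batch the level of the 35 genes moved with the mitochondrial share (Pearson r = 0.704, Spearman rho = 0.6). The median over the 35 genes of the log2 level minus the vehicle mean ranged from -0.55 to -0.10 in the 18 libraries under 5% and from -0.29 to 0.03 in the other 57. Among those 57, the lowest 2 were libraries of oleanolic acid at 10 µM, at -0.29 and -0.28 with 10.3 and 11.2% mitochondrial mRNA, and the group's remaining library, with 2.97%, was at -0.23. The same 18 libraries had less signal from long transcripts, at -1.32 to -0.11 for the log2 level of transcripts over 6000 bases relative to those under 2000, beside -0.79 to 0.08 in the other 57. The median over the 35 genes moved more closely with this long-transcript value (Pearson r = 0.81, Spearman rho = 0.834). Replicate 3 of catechin at 2 µM, with 6.51% mitochondrial mRNA, was at -0.787, so the 5% limit does not set apart every library short of long transcripts. The part of the mitochondrial share and of transcript length in the calls for oleanolic acid, gallic acid and catechin was not tested. Without the low-share libraries the median with oleanolic acid at 10 µM was -0.27, and the 2 libraries that remained had long-transcript values of -0.166 and -0.385, beside -0.008 to 0.005 with vehicle.

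**Figure D5:**
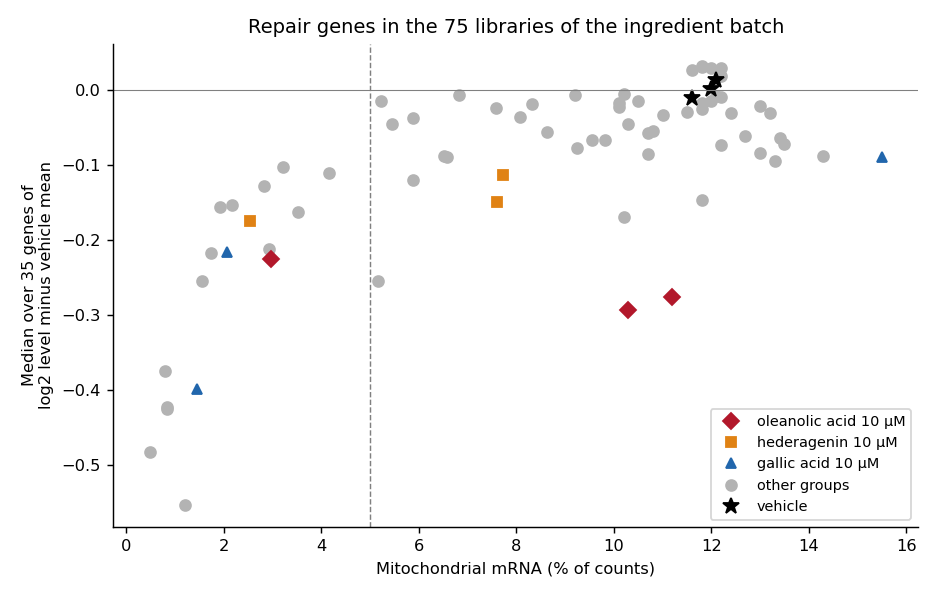
Each point is 1 of the 75 libraries of the ingredient batch: mitochondrial mRNA as a percent of counts (x axis) against the median over the 35 genes of the log2 level minus the vehicle mean (y axis); the dashed line marks 5%. Libraries to the left of the line lie between -0.55 and -0.10, and the 3 libraries of oleanolic acid at 10 µM lie between -0.29 and -0.23 on both sides of it.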

How the data were processed

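Expression was measured by RNA-seq in 96 libraries of A549 cells, made with the MGIEasy RNA Directional kit per the labels' protocols. The deposited values are expected counts per gene, estimated by the authors with RSEM 1.3.3 on GRCh38 per the submitters' processing notes, which also name FastQC, Trim Galore and STAR. No source used here gives the annotation release or whether strand was used in counting. Of the deposited values 89.2% were whole numbers, and the rest were rounded. Library totals were 17927973 to 28136782 counts in the extract batch and 15678190 to 35599940 in the ingredient batch, and no pair of replicates was identical.

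Each batch was fitted on its own with all its groups in edgeR 4.0.16 (R 4.3.3, limma 3.58.1): filterByExpr, TMM scaling, quasi-likelihood F-tests and Benjamini-Hochberg adjustment over all genes tested in a comparison, with a threshold of 0.05. The residual degrees of freedom were 14 and 50. In all, 42 comparisons were made. Alternatives were DESeq2 1.42.0 as the test, its size factors in edgeR, no filter, a threshold of 0.01, a fit of only the groups compared, a replicate block, each library left out in turn, and the ingredient batch without the 4 libraries with COL1A2 above 100 CPM. Leaving out the 18 libraries under 5% mitochondrial mRNA was chosen after seeing the data.

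The 35 genes and the lists were chosen with earlier results of these data known. Values in every library were given for the 3 genes of each role with the smallest p for ethanol extract (500 µg/mL), and for genes that passed in other vehicle comparisons with 10 or fewer passing. The 2 genes with the smallest p were named from each other list, except where a gene is not reported here. Values of other genes were chosen after they were seen. Renamed symbols were matched by gene ID, which left 49 of 50 other recombination and Fanconi genes (FIRRM was not matched). Of the fibroblast markers 6 of 9 were tested with ethanol extract at 500 µg/mL (1 rose, 2 fell; FBN1 log2 0.68, THY1 -0.65), of the leukocyte and endothelial markers 0 of 7, and of the 6 epithelial markers 5 fell (KRT8 -0.71, KRT18 -0.60). Gene positions and overlaps are from GENCODE v29.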

Additional observations from a re-analysis of the deposited data

Results flagged for a closer look

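For 9 of the 35 genes both extracts at 500 µg/mL passed against vehicle in opposite directions. Of all genes tested, 69.1% passed with ethanol extract and 21.1% with water extract. The share of all genes with opposite directions was not counted, so the 9 are not read as a result particular to the 35. The comparisons share the same 3 vehicle libraries, and the direction of ethanol minus water is set by this choice of genes, so the differences are given as a description. They were, on the log2 scale, -2.05 for ATR, -1.32 for ATM, -0.92 for BRIP1, -0.91 for FANCI, -0.68 for FANCB, -0.67 for FANCL, -0.61 for FANCA and -0.29 for BRCA1. Each of these 8 was lower than vehicle with ethanol extract and higher than vehicle with water extract, and RBBP8 did the reverse, with a difference of 0.4. In 5 of the 9 genes 1 of the calls against vehicle was not firm. The ethanol call was lost for FANCB in all 6 fits that left out 1 library and with DESeq2 (adjusted p = 0.0963), and for BRCA1 in 2 of the 6. The water call was lost for FANCL in 3 of the 6 (adjusted p of 0.055 to 0.13) and for BRIP1 and RBBP8 without replicate 2 of the water extract (adjusted p = 0.0529 and 0.0602). ATR, ATM, FANCI and FANCA kept both calls in these fits.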

How the results depend on the processing

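Counts of the 35 genes past the test are given here for settings other than the reported one. The share of all genes that passed moved with the setting as well. With ethanol extract at 20 µg/mL it was 7.45% as reported and 0.69% with only the compared groups in the fit. Shifts in the counts are therefore not read as results about the 35. The 26 with ethanol extract at 500 µg/mL and the 25 between the extracts at that dose ranged over 24 to 25 and 23 to 27 with 1 library left out at a time, and stayed within 1.5 times under the other settings run. With 1 library left out, the 6, 3, 13, 8 and 7 genes with ethanol extract at 100 and 20 µg/mL and water extract at 500, 100 and 20 µg/mL ranged over 4 to 7, 1 to 3, 9 to 16, 5 to 11 and 2 to 7. At 10 µM they ranged over 0 to 2 with oleanolic acid, 0 to 0 with hederagenin and 0 to 18 with gallic acid, over 0 to 13 in total at 2 and 0.4 µM, and over 0 to 15 for the ingredient pairs. In the other comparisons at 10 µM and between extracts the range was 0 to 0. At a threshold of 0.01, 1 gene was left with ethanol extract at 20 µg/mL, 5 with water extract at 100 µg/mL, 1 with water extract at 20 µg/mL, and 0 with oleanolic acid, hederagenin and gallic acid at 10 µM, at the lower ingredient doses and for the pairs. With only the compared groups in the fit, the counts were 0 with ethanol extract and 3 with water extract at 20 µg/mL. At 10 µM they were 18 with oleanolic acid, 8 with hederagenin, 0 with gallic acid, 1 with catechin, 3 with albiflorin and 1 with benzoic acid, and the totals were 31 at the lower doses and 0 for the pairs. DESeq2 gave 6 with oleanolic acid, 5 with gallic acid, 12 in total at the lower doses and 5 for the pairs. Its size factors in edgeR gave 0 with hederagenin. With no filter on low counts, 0 passed with oleanolic acid, hederagenin, the lower doses and the pairs. Without the COL1A2 libraries the counts were 6 with oleanolic acid, 8 with gallic acid, 14 at the lower doses and 7 for the pairs. Without the libraries under 5% mitochondrial mRNA they were 18 with oleanolic acid, 9 with hederagenin, 0 with gallic acid, 1 each with catechin, paeonol and paeoniflorin, and 38 at the lower doses. The cause of these shifts was not tested.

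Same-numbered libraries did not deviate together in any comparison of an extract with vehicle (correlations of -0.054 to 0.082) or between the extracts (-0.021 to 0.14, with every correlation over 0.1 in 0 of 3), nor in any of the 24 ingredient comparisons with vehicle, and did so in 1 of the 9 ingredient pairs, so the numbers were not taken as pairs. With the replicate block, 26 genes passed with ethanol extract at 500 µg/mL, 5 with ethanol extract at 20 µg/mL, 2 with gallic acid at 10 µM and 1 between the extracts at 100 µg/mL. In the extract comparisons no named gene reversed its direction in a call, and reversals were not checked for single genes in the ingredient batch. In the totals, single libraries that moved the count by over 1.5 times included replicate 2 of gallic acid at 10 µM (15 for the pairs without it) and replicate 3 of hederagenin at 0.4 µM (13 at the lower doses without it). The ingredient batch, with its wider spread, limits what could be detected there: 0 called is not evidence that an ingredient left these genes unchanged.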
